A study of Mus musculus with 6 samples.

Results

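The potassium channel genes were taken as every symbol in the deposited table that begins with Kcn, apart from the antisense transcript Kcnq1ot1. This gave 49 of the 14927 genes listed, of which 28 belong to the voltage-gated class, 8 to the calcium-activated class, 8 to the inward rectifiers and 5 to the two-pore class. Each class holds the pore-forming subunits and, where they exist, the auxiliary subunits that carry a Kcn symbol. The sodium-activated genes Kcnt1 and Kcnt2, which belong to the same structural family as the large-conductance calcium-activated channel, were counted with the calcium-activated class.

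The RNA came from smooth muscle cells cultured from the thoracic aorta of wild-type C57BL/6 mice, at passages 3 to 7 (the growth protocol names a slightly earlier first passage). Confluent cultures were kept in 0.5% serum for 24 h. They then received 100 ng/mL recombinant TWEAK (3 libraries) or vehicle (3 libraries) for 24 h in 0.5% serum. TWEAK belongs to the tumour necrosis factor superfamily of cytokines and signals through the receptor Fn14. Primary cells in culture lose part of the contractile character they have in the artery wall, and the sources used here do not tie the 3 experiments to different animals, so p-values measure only the spread between these experiments, which may be technical.

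Potassium channels let potassium leave the cell and so hold the membrane potential of arterial smooth muscle negative, which keeps voltage-gated calcium channels closed and the vessel relaxed. Voltage-gated Kv channels open on depolarisation, calcium-activated channels open when calcium rises, and two-pore channels leak at rest. Inward rectifiers pass current more readily into the cell than out of it, and those of the Kcnj8 type open when ATP falls. Smooth muscle cells that leave the contractile state and divide are known to exchange some of these channels for others.

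The sequenced reads summed to between 62632273 and 82118717 per library over the listed genes, and every potassium channel gene had a read in every library. The authors' normalized counts of single members ran from 3.48 to 7134, and 32 of the 49 members averaged at least 50. Together the members held 0.0234% to 0.0285% of all normalized counts in the TWEAK libraries and 0.0239% to 0.0358% in the vehicle libraries. The column headers number the libraries by experiment, and libraries of the same experiment deviated together from their group means, with correlations across genes of 0.879, 0.868 and 0.734. Differences were therefore tested within experiments, with limma on log2(normalized count + 1) and the experiment as a block. A gene was called at a Benjamini-Hochberg adjusted p under 0.05 over all 14927 genes. Fold changes are on this log2 scale, where the added 1 shrinks those of sparsely read genes.

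The comparison asks which potassium channel transcripts of these cultures differ after TWEAK. Of the 49 members, 3 rose and 11 fell with TWEAK, and 35 were not called. Kcnn3, a small-conductance calcium-activated channel, rose 9.19-fold, the Kv7 channel gene Kcnq5 rose 7.15-fold and the inward rectifier gene Kcnj15 rose 1.60-fold. Those that fell were 5 of the 6 measured Kv1 genes (Kcna1, Kcna2, Kcna4, Kcna5 and Kcna6), Kcnh1, Kcnj8, Kcnj12, Kcnmb1, Kcnn1 and Kcnt2. The 3 members that rose are 6.12% of the members, where 8.11% of all genes rose, and the 11 that fell are 22.4%, where 5.55% of all genes fell; 13.7% of all genes were called in either direction. The median log2 fold change was -0.28 over the members and 0.02 over all genes. In all 3 experiments 23 members (46.9%) were lower with TWEAK and 7 (14.3%) were higher, while 27.0% and 28.2% of all genes did so. With TMM scaling 3 members rose and 6 fell, where 7.61% of all genes rose and 4.30% fell. In the authors' deposited table, 5 members were higher and 14 lower with TWEAK at an adjusted p under 0.05, against 10.8% and 7.31% of all its genes (18.1% in either direction).

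The contractile markers of smooth muscle moved with the treatment too. Of 8 listed markers 7 fell, among them Myh11, the smooth muscle myosin heavy chain (log2 fold change -1.14, limma adjusted p = 0.00355), and Cnn1, the actin-binding calponin (-1.10, 0.00928); the intermediate filament gene Des rose. The list summed to 190740 to 272660 normalized counts with TWEAK and 319340 to 377090 with vehicle, and its part in the potassium channel results was not tested. In bulk RNA, fewer cells of a type and less RNA per cell cannot be told apart.

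Without the block no member passed (0 of 49, with 12 at an unadjusted p under 0.05 in limma), where 0.0201% of all genes passed and 9.91% had an unadjusted p under 0.05. Leaving out experiment 1, 2 or 3 left 3, 18 or 4 members called, where 4.66%, 26.1% or 4.46% of all genes were called. Kcnn3, Kcnq5 and Kcna5 were called whichever experiment was left out, Kcna2 was also called without experiment 3, and the other 10 calls were lost without experiment 1 and without experiment 3. Exons of the called Kcnq5, Kcnj15, Kcnt2, Kcna6 and Kcnn1 overlap a gene on the opposite strand in GENCODE M21, none of them listed in the table, and the use of strand in counting is not stated, so their counts are uncertain to that extent.

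**Figure D1:**
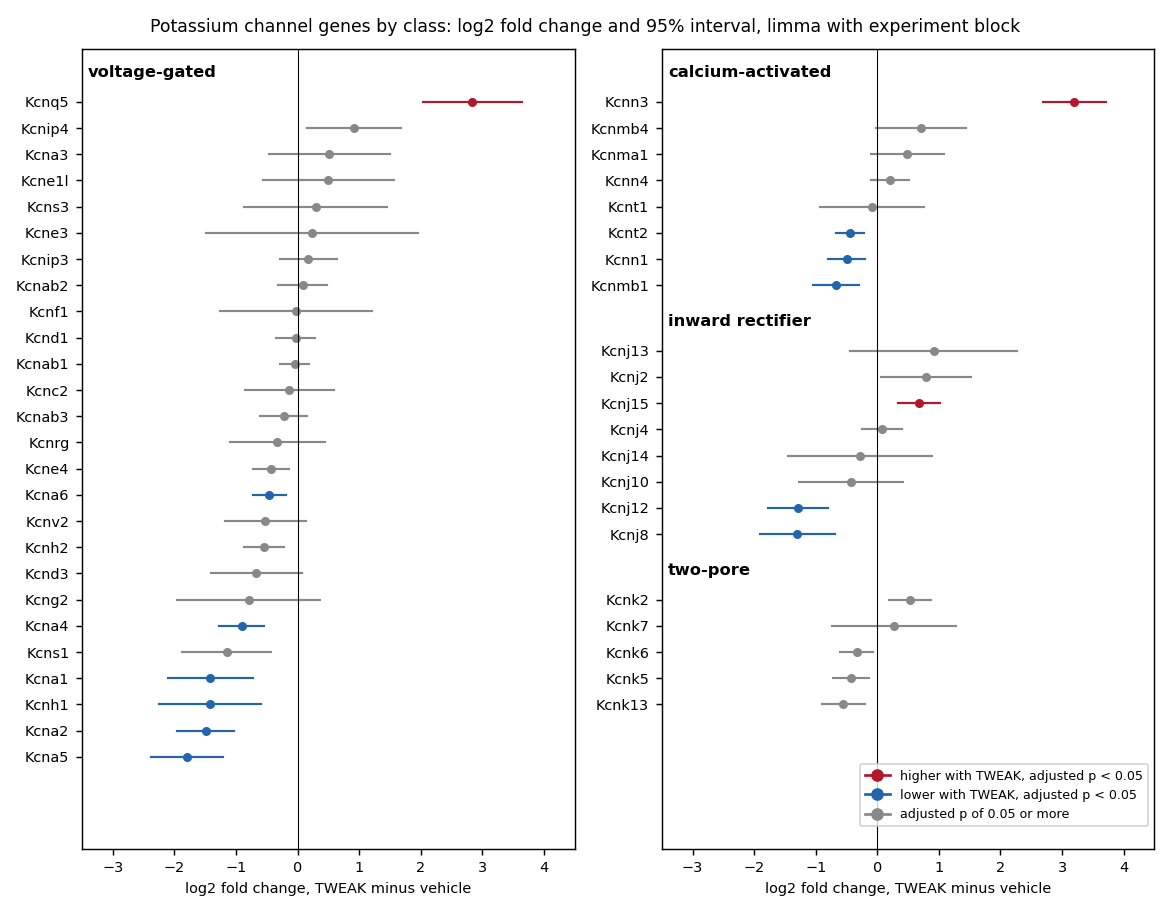
Log2 fold change of TWEAK minus vehicle (x axis) for 47 of the 49 potassium channel genes, grouped by class and ordered by size, with 95% intervals from limma with the experiment as a block. Red points are the 3 genes called higher with TWEAK, blue points the 11 called lower and grey points are genes not called; Kcnn3 (3.20) and Kcnq5 (2.84) lie far to the right of the others.

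The 250 bases before the transcription start were read for the members from RefSeq (GRCm38.p6), since the members that moved together could share promoter motifs; 39 of the 49 members matched by symbol. The windows of the 2 largest rises and the 2 largest falls are shown, and capitals mark the 1 motif found in them. Coordinates are those of the RefSeq windows, since the sources used here name no genome build for the authors' counts.
Kcnn3 promoter (chr3:89519914-89520163, plus strand): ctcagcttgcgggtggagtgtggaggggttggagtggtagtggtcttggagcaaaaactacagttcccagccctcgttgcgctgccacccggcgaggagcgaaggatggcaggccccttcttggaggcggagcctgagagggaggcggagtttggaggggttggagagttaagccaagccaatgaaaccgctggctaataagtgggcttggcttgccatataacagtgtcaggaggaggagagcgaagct
Kcnq5 promoter (chr1:21962651-21962900, minus strand): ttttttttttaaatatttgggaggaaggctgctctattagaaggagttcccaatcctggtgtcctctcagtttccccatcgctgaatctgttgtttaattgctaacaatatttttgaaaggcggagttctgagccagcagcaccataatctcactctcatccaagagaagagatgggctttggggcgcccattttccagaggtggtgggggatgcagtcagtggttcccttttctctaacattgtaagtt
Kcna5 promoter (chr6:126535556-126535805, minus strand): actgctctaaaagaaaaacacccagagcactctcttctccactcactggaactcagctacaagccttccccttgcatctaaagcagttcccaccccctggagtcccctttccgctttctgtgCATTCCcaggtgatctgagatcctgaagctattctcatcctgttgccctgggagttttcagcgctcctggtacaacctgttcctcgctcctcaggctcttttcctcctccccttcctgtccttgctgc
Kcna2 promoter (chr3:107101317-107101566, plus strand): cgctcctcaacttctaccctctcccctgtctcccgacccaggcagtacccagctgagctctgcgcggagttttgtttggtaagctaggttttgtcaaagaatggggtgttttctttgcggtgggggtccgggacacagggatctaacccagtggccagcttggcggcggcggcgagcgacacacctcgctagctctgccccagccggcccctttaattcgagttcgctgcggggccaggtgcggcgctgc
Both strands were searched for the CArG box, bound by serum response factor at smooth muscle genes, for the NF-kB site, for the AP-1 site TGANTCA and for the M-CAT element CATTCC, bound by TEAD factors. The capitals in Kcna5 are an M-CAT match that begins 128 bases before the start. No CArG box lay in the windows of the 39 members, and 1.47% of all 32851 windows of this length held one. Of the 56 windows of members, 8 held an M-CAT match (12.6% of all windows), 5 an NF-kB match (3.90%) and 4 an AP-1 match (6.75%). Among the called members, Kcna5 had an M-CAT match and Kcnn1 an NF-kB match. These matches are descriptions of the letters in a short window only.

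Kv1 genes encode pore-forming subunits that assemble in groups of mixed composition and carry much of the delayed rectifier current of arterial muscle. Kcna5 had 73.1, 52.2 and 43.3 normalized counts in the TWEAK libraries of experiments 1 to 3, against 176, 204 and 202 in the vehicle libraries. Each TWEAK library thus lay well below each vehicle library, and the experiments hardly differed in the vehicle level. On the log2 scale Kcna5 changed by -1.80 (SE 0.23, 95% interval -2.38 to -1.21, limma adjusted p = 0.00929). Of the called members that fell, Kcna5 was the one whose call held when any 1 experiment was left out.

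Kcna2 had 371, 93.6 and 83.3 normalized counts with TWEAK, against 1402, 207 and 224 with vehicle. Kcna1 had 523, 180 and 117 with TWEAK, against 1787, 273 and 432 with vehicle. For both genes experiment 1 stood far above the others in each group, so that its TWEAK library exceeded the vehicle libraries of the other 2 experiments and the groups overlapped. Within each experiment the TWEAK library was the lower one. The log2 fold change was -1.49 for Kcna2 (SE 0.18, limma adjusted p = 0.00847) and -1.42 for Kcna1 (SE 0.27, limma adjusted p = 0.0305). Kcna2 lost its call without experiment 1 (log2 fold change -1.28), and Kcna1 lost it without experiment 1 (-1.24) or 3 (-1.19).

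Kcna4, which gives a rapidly inactivating current, had 309, 121 and 185 normalized counts with TWEAK, against 706, 203 and 319 with vehicle (log2 fold change -0.91, SE 0.15, limma adjusted p = 0.0166). Kcna6 had 1474, 974 and 783 with TWEAK, against 2248, 1425 and 911 with vehicle (log2 fold change -0.46, SE 0.11, limma adjusted p = 0.0456). Both were lower in all 3 experiments, with overlapping groups, and Kcna6 lost its call with edgeR and with TMM scaling. The sixth Kv1 gene, Kcna3, known from proliferating smooth muscle cells and from lymphocytes, was not called at 21.8, 18.0 and 44.4 normalized counts with TWEAK, against 28.5, 9.43 and 20.7 with vehicle. Its interval ran from -0.46 to 1.50 on the log2 scale, and its experiments differed in sign (log2 ratios -0.38, 0.86 and 1.06).

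Summed over the 6 Kv1 genes, the TWEAK libraries held 2772, 1438 and 1256 normalized counts, against 6348, 2322 and 2108 in the vehicle libraries. The sum in the TWEAK library was 43.7%, 62.0% and 59.6% of that in the vehicle library of experiments 1, 2 and 3. Kcna5, Kcna1 and Kcna6 are consecutive coding genes in the RefSeq annotation, and Kcna3 and Kcna2 are consecutive as well. The first cluster thus holds genes that fell, while in the second Kcna2 fell and Kcna3 was not called.

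**Figure D2:**
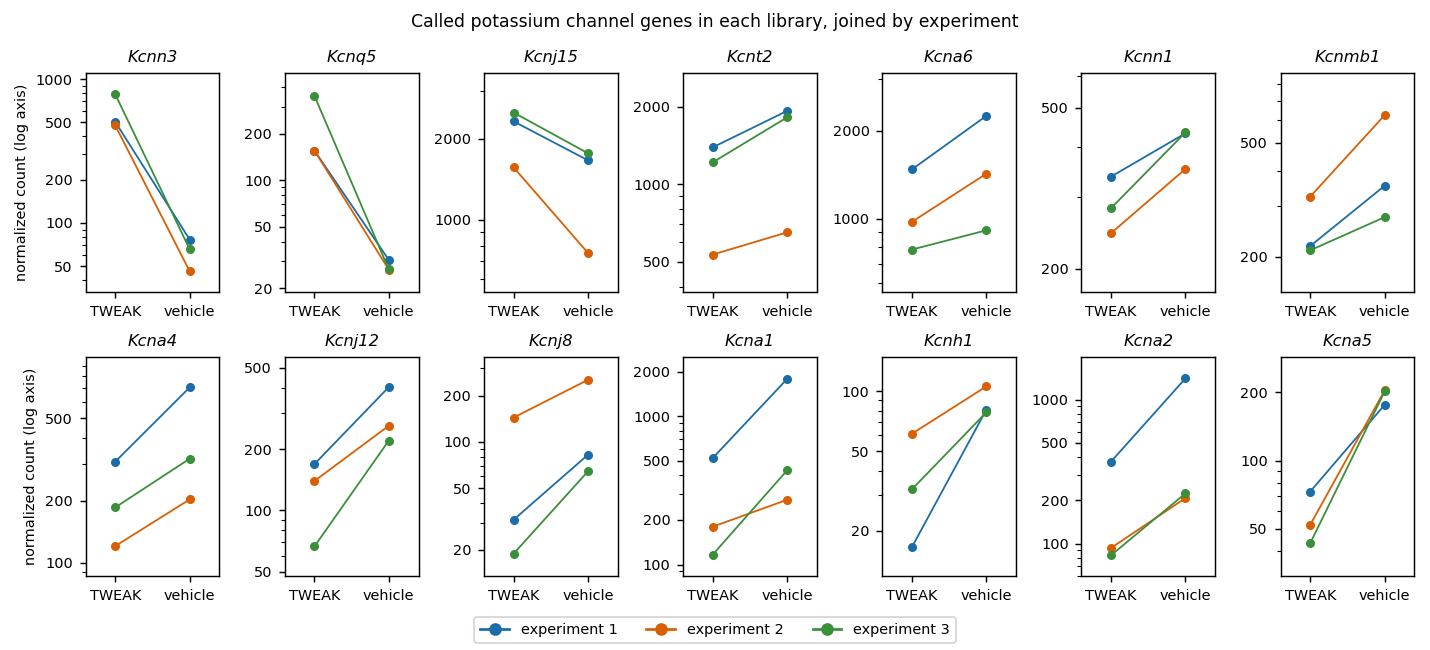
Normalized count (y axis, logarithmic) of the 14 called potassium channel genes in each library, with TWEAK at the left of each panel and vehicle at the right; lines join the 2 libraries of 1 experiment, coloured by experiment. The lines of Kcnn3, Kcnq5 and Kcnj15 run down from TWEAK to vehicle and those of the other 11 genes run up. Kcna1, Kcna2, Kcna4, Kcna6, Kcnt2 and Kcnj12 are highest in experiment 1 in both groups.

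The Kv7 genes encode channels that open near the resting potential of vascular muscle. Kcnq5 had 156, 156 and 352 normalized counts with TWEAK, against 30.5, 26.4 and 26.5 with vehicle, and every TWEAK library exceeded every vehicle library. Its log2 fold change was 2.84 (SE 0.32, 95% interval 2.04 to 3.64, limma adjusted p = 0.00705), and experiment 3 gave the largest ratio (3.68, against 2.31 and 2.51 in experiments 1 and 2).

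Kcnh1 encodes the EAG channel, best known from neurons and dividing tumour cells, and Kcnh2 the ERG channel of the heart. Kcnh1 had 16.5, 61.2 and 32.2 normalized counts with TWEAK, against 80.7, 106 and 78.3 with vehicle, and the groups did not overlap. It was called (log2 fold change -1.42, SE 0.33, limma adjusted p = 0.0498), and the call was lost with edgeR, limma-voom, TMM scaling and other settings. Kcnh2 had 555, 422 and 363 with TWEAK, against 660, 680 and 584 with vehicle, again without overlap, and missed the threshold (log2 fold change -0.54, SE 0.13, limma adjusted p = 0.0507). In the authors' deposited table, Kcnh1 (adjusted p = 0.00567) and Kcnh2 (0.0105) both passed 0.05.

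Over the 49 members the groups did not overlap for 11, 3 of them higher and 8 lower with TWEAK; 16.0% of all genes did not overlap, 8.60% higher and 7.42% lower. Besides the called Kcnn3, Kcnq5, Kcna5, Kcnh1, Kcnj12 and Kcnn1, these included Kcnh2, the two-pore gene Kcnk2 and the sparsely read inward rectifier gene Kcnj10. Among the other voltage-gated pore genes, Kcnd1, Kcnd3 and Kcnc2 were not called, with log2 fold changes of -0.03, -0.67 and -0.13. The modulatory subunit genes Kcnf1, Kcng2, Kcns1, Kcns3 and Kcnv2, whose products form channels only together with other Kv subunits, had no call in limma, and 1 of them had an unadjusted p under 0.05, as did 30.3% of all genes. This was Kcns1, at -1.15 (limma adjusted p = 0.0561), which passed in the authors' deposited table (0.0214).

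The auxiliary subunits of Kv channels included the 2 members with the highest level per kilobase. Kcne4, a single-span subunit that modulates Kv1 and Kv7 channels and is known in arterial muscle, had 4713, 3890 and 3272 normalized counts with TWEAK, against 7134, 4253 and 4843 with vehicle. It was lower in each experiment without passing (log2 fold change -0.43, SE 0.11, limma adjusted p = 0.0679), and it passed in the authors' deposited table (0.0103). Kcnab1, a cytoplasmic beta subunit of Kv1 channels, had 2623, 1256 and 1466 with TWEAK, against 2840, 1122 and 1661 with vehicle. For Kcnab1 the direction differed between experiments. Its interval, -0.28 to 0.19 on the log2 scale, left little room for changes as large as those of Kcna1, Kcna2, Kcna4 and Kcna5. The Kcna6 interval, -0.72 to -0.19, overlapped it. Kcnab2, a related beta subunit, had a log2 fold change of 0.08 (95% interval -0.32 to 0.48). The remaining auxiliary genes Kcnab3, Kcne1l, Kcne3, Kcnip3, Kcnip4 and the regulator gene Kcnrg had log2 fold changes from -0.33 to 0.92, and none was called.

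**Figure D3:**
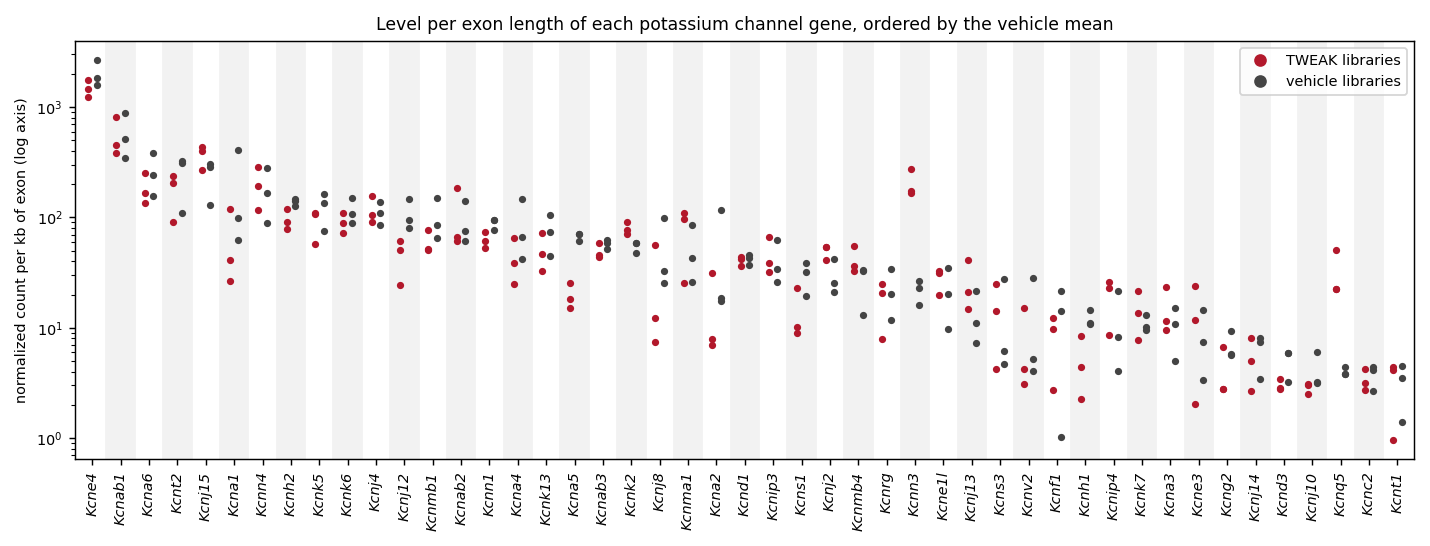
Normalized count per kilobase of merged exons (y axis, logarithmic) of 47 potassium channel genes in each TWEAK library (red) and each vehicle library (dark grey), ordered by the vehicle mean. Kcne4 and Kcnab1 stand at the left end, and Kcnn3 and Kcnq5 show red points far above their dark grey points.

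Per kilobase of exon, Kcne4 averaged 1490 ± 272 normalized counts with TWEAK and 2036 ± 573 with vehicle, and Kcnab1 549 ± 227 with TWEAK and 578 ± 271 with vehicle (SD, n = 3 each). Together they made up 40.2% to 46.2% of the summed level of all members in the TWEAK libraries and 43.7% to 49.1% in the vehicle libraries. Next in the vehicle order stood Kcna6 (262 ± 116), Kcnt2 (249 ± 120), Kcnj15 (242 ± 96.7), Kcna1 (188 ± 188) and Kcnn4 (178 ± 95.6), which differ from each other by less than their spread over libraries (SD, n = 3 each). Kcnq5 stood at place 47 of 49 in that order and Kcnn3 at place 30. Exon lengths came from GENCODE M21 and may differ from those of the annotation the authors used.

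Small and intermediate conductance channels, encoded by the Kcnn genes, open on calcium alone through bound calmodulin. Kcnn3 had 505, 477 and 785 normalized counts with TWEAK, against 76.7, 46.2 and 65.7 with vehicle. The lowest TWEAK library held several times the reads of the highest vehicle library, and the ratio was large in each experiment (log2 ratios 2.70, 3.34 and 3.56). The log2 fold change was 3.20 (SE 0.20, 95% interval 2.68 to 3.72, limma adjusted p = 0.00325). Calls of both Kcnn3 and Kcnq5 held in all alternatives tried except the fit without the block, where the adjusted p was 0.0602 for Kcnn3 and 0.0823 for Kcnq5 in limma.

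Kcnn1, of the same small-conductance type, had 338, 245 and 282 normalized counts with TWEAK, against 432, 353 and 434 with vehicle, with no overlap. It fell by 0.50 on the log2 scale (SE 0.12, limma adjusted p = 0.0487) and lost this narrow call with edgeR, limma-voom and TMM scaling. Kcnn4, the intermediate-conductance channel known to increase in proliferating smooth muscle cells, had 579, 389 and 235 with TWEAK, against 568, 337 and 182 with vehicle. It differed far more among experiments (limma adjusted p = 0.00382) than between treatments, where the log2 fold change was 0.20 (95% interval -0.11 to 0.51, limma adjusted p = 0.323). Per kilobase, Kcnn3 made up 32.8% to 60.5% of the summed Kcnn level in the TWEAK libraries and 6.19% to 10.99% in the vehicle libraries. With vehicle it was the lowest of the 3 Kcnn genes in every library, and with TWEAK it was above Kcnn1 in every library and above Kcnn4 in that of experiment 3.

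Large-conductance channels are built from the pore encoded by Kcnma1, and in arterial muscle their calcium sensitivity is set by the beta subunit encoded by Kcnmb1. Kcnmb1 had 218, 325 and 211 normalized counts with TWEAK, against 354, 624 and 275 with vehicle. It was lower in each experiment, by 0.70, 0.94 and 0.38 on the log2 scale, and was called (log2 fold change -0.67, SE 0.15, limma adjusted p = 0.0401), but not with TMM scaling. Kcnma1 had 326, 1239 and 1404 with TWEAK, against 336, 555 and 1106 with vehicle. It hardly differed in experiment 1 and was higher with TWEAK in the other 2, with a log2 fold change of 0.49 whose interval ran from -0.11 to 1.08 (limma adjusted p = 0.233). The intervals of Kcnma1 and Kcnmb1 do not overlap, although the difference between the 2 genes was not itself tested. The second beta subunit gene measured, Kcnmb4, known from neurons, averaged 56.3 normalized counts with TWEAK and 36.0 with vehicle and was not called (limma adjusted p = 0.175).

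Of the sodium-activated genes, Kcnt2 had 1393, 534 and 1218 normalized counts with TWEAK, against 1928, 652 and 1820 with vehicle. Experiment 2 was low in both groups, and within each experiment TWEAK was the lower (log2 fold change -0.44, SE 0.09, limma adjusted p = 0.0350). Kcnt2 lost its call with TMM scaling (limma adjusted p = 0.0522). Kcnt1 was at the low end of the members, with means of 20.0 with TWEAK and 19.7 with vehicle.

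Among the inward rectifiers, Kcnj8 encodes the pore of the ATP-sensitive channel of vascular muscle and pericytes. Kcnj8 had 31.3, 144 and 18.9 normalized counts with TWEAK, against 82.7, 253 and 64.5 with vehicle. Experiment 2 was the highest in both groups, and the ratios within experiments were -1.37, -0.81 and -1.72 on the log2 scale. It was called at -1.30 over the experiments (SE 0.24, limma adjusted p = 0.0258). Abcc9, the sulphonylurea receptor that forms this channel together with Kcnj8, had 479, 325 and 142 with TWEAK, against 825, 596 and 465 with vehicle, and fell by 1.12 (SE 0.21, limma adjusted p = 0.0275).

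Kcnj12 and Kcnj2 encode strong rectifiers of the Kir2 type. Kcnj12 had 169, 139 and 66.6 normalized counts with TWEAK, against 402, 260 and 220 with vehicle, with no overlap between the groups (log2 fold change -1.28, SE 0.19, limma adjusted p = 0.0145). Kcnj2 had 223, 294 and 292 with TWEAK, against 228, 116 and 138 with vehicle. In Kcnj2 experiments 2 and 3 were higher with TWEAK and experiment 1 was level, and it was not called (log2 fold change 0.79, 95% interval 0.06 to 1.52, limma adjusted p = 0.139), though it passed in the authors' deposited table (0.0367). The intervals of these 2 genes lie on opposite sides of 0.

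Kcnj15, a rectifier known from kidney epithelium, had the highest counts of its class, with 2321, 1565 and 2503 with TWEAK, against 1663, 753 and 1766 with vehicle. It was higher with TWEAK in each experiment, most in experiment 2 (log2 ratios 0.48, 1.06 and 0.50), and it was called (log2 fold change 0.68, SE 0.14, limma adjusted p = 0.0333). Kcnj15 made up 44.5% to 64.5% of the summed Kcnj level per kilobase in the TWEAK libraries and 25.8% to 54.5% in the vehicle libraries. Kcnj4, of the Kir2 type, was nearly level (0.07, 95% interval -0.25 to 0.40), and Kcnj10, Kcnj13 and Kcnj14 averaged under 50 normalized counts and were not called.

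Among the 5 two-pore genes limma called 0, although 4 had an unadjusted p under 0.05 with the block (30.3% of all genes) and 1 without it (9.91% of all genes). Kcnk2, the mechanically and thermally gated TREK channel, had 381, 320 and 298 normalized counts with TWEAK, against 244, 200 and 245 with vehicle, with no overlap (log2 fold change 0.53, SE 0.14, limma adjusted p = 0.0628), and it passed in the authors' deposited table (0.0365). Kcnk13, Kcnk5 and Kcnk6, all background channels, were lower with TWEAK in every experiment at log2 fold changes of -0.55, -0.43 and -0.34, with limma adjusted p-values of 0.0574, 0.0732 and 0.1005. Kcnk7 averaged 20.7 normalized counts with TWEAK and 15.8 with vehicle.

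Of all genes 8.11% rose and 5.55% fell. By class, 1 voltage-gated gene rose and 6 of 28 fell, 1 calcium-activated gene rose and 3 of 8 fell, and 1 inward rectifier rose and 2 of 8 fell. The class medians of the log2 fold change were -0.38, 0.06 and -0.11 for these classes and -0.34 for the two-pore genes, where that of all genes was 0.02. Summed over the voltage-gated genes, the TWEAK libraries held 9645 ± 2498 normalized counts and the vehicle libraries 13112 ± 4834 (SD, n = 3 each). For the inward rectifiers the sums were 2905 ± 345 with TWEAK and 2278 ± 482 with vehicle (SD, n = 3 each). Within each experiment the voltage-gated sum was lower with TWEAK and the inward rectifier sum higher. Single genes held much of these sums, which thus do not describe each class as a whole. Kcne4 averaged 3958 with TWEAK and 5410 with vehicle, and Kcnj15 averaged 2130 with TWEAK and 1394 with vehicle. The 17 members that averaged under 50 normalized counts held no call. For the 35 members not called, the median half-width of the 95% interval was 0.72 on the log2 scale.

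The members also differed among experiments. Of the 49, 25 (51.0%) differed among the 3 experiments by limma's F-test at an adjusted p under 0.05, as did 48.6% of all genes. Among these 25 the vehicle level peaked in experiment 1 for 15, in experiment 2 for 7 and in experiment 3 for 3. This split was not counted over all genes, so it cannot be read as particular to the members. Markers of other cell types also differed among experiments. The 10 listed macrophage markers summed to 53251, 8388 and 3328 normalized counts in the TWEAK libraries, against 54749, 8379 and 3015 in the vehicle libraries. The 10 endothelial markers summed to 15748, 67991 and 44118 with TWEAK, against 16590, 77718 and 50524 with vehicle. Between treatments limma called 0 markers of these 2 lists, and none was at 0 in any library. At an unadjusted p under 0.05 with the block, the macrophage marker Cd14 was higher with TWEAK, as was the endothelial marker Cldn5, and the endothelial markers Pecam1, Emcn and Tie1 were lower. In all 3 experiments 3 macrophage markers were higher with TWEAK, and 4 endothelial markers were lower and 1 was higher. Of all genes, 30.3% had an unadjusted p under 0.05 in limma with the block. In all 3 experiments 28.2% of all genes were higher and 27.0% lower. In the authors' deposited table the macrophage markers Cd14 (adjusted p = 0.0163) and Mrc1 (0.0482) passed as higher with TWEAK. Kcna1, Kcna2, Kcna4, Kcnn4 and Kcnab2 were highest in experiment 1 in both groups, as the macrophage sum was. So were other members, among them Kcna6, Kcnt2, Kcnj12, Kcnab1, Kcnk6 and Kcnk13. The sum of the smooth muscle markers was also highest in experiment 1, at 272660 normalized counts with TWEAK and 377090 with vehicle. Kcnj8 and Kcnmb1 were highest in experiment 2 in both groups, as the endothelial sum was. The same held for other members, among them Kcnj4, Kcnip3, Kcnab3, Kcnh1, Kcns3 and Kcnmb4. Single markers departed from their sum: Cd14 was highest in experiment 2, and Vwf, an endothelial marker, in experiment 1. The endothelial markers Emcn and Tek were highest in experiment 3 in both groups. The part of these cells in the members' levels was not tested.

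Some markers of other cell types moved with the treatment. Of the 5 Schwann and glial markers analysed, S100b fell by 1.22 on the log2 scale (limma adjusted p = 0.00675) and the other 4 were not called. Their sum was 7144, 3630 and 2999 with TWEAK, against 10534, 4328 and 3952 with vehicle. It was highest in experiment 1, as were Kcna1 and Kcna2, channel genes also known from axons, and as was the smooth muscle sum. Of 6 fibroblast markers 2 rose (Pdgfra and Dpt) and 2 fell (Pi16 and Col14a1), with sums of 103990 to 130330 with TWEAK and 94270 to 137580 with vehicle. Fabp4, the adipocyte marker analysed, had a log2 fold change of -0.31 and was not called. Over all genes, 8.11% rose and 5.55% fell. The part of these cells in the potassium channel results was not tested.

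The genes that work beside potassium channels were described from 5 further lists. Of 11 potassium channel partners analysed, 2 rose and 2 fell (median 0.04 on the log2 scale). The shares over all genes were 8.11% for a rise and 5.55% for a fall. Besides Abcc9, the caveolar scaffold gene Cav1 fell by 0.56 (limma adjusted p = 0.0336). Akap5, which anchors protein kinase A near channels, rose by 0.99 (limma adjusted p = 0.0203), and Lrrc55, an auxiliary gamma subunit of large-conductance channels, rose to 30.4, 29.7 and 27.8 normalized counts with TWEAK, against 9.84, 11.3 and 8.06 with vehicle (log2 fold change 1.51, limma adjusted p = 0.0343). Lrrc55 was thus low in both groups, and it lost its call with DESeq2.

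The sodium pump exchanges intracellular sodium for potassium and so maintains the gradient that potassium channels use. Where 5.55% of all genes fell and 8.11% rose, 3 of the 9 pump genes analysed fell and 1 rose. Among them Fxyd1, a pump regulator, fell by 0.50 (limma adjusted p = 0.0246), and Fxyd5, another regulator of this family, rose by 0.33 (limma adjusted p = 0.0431). Of 9 cation-chloride cotransport genes, the sodium-potassium-chloride cotransporter gene Slc12a2 rose by 0.52 (limma adjusted p = 0.0312). No other gene of this list was called, where 13.7% of all genes were called in either direction.

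**Figure D4:**
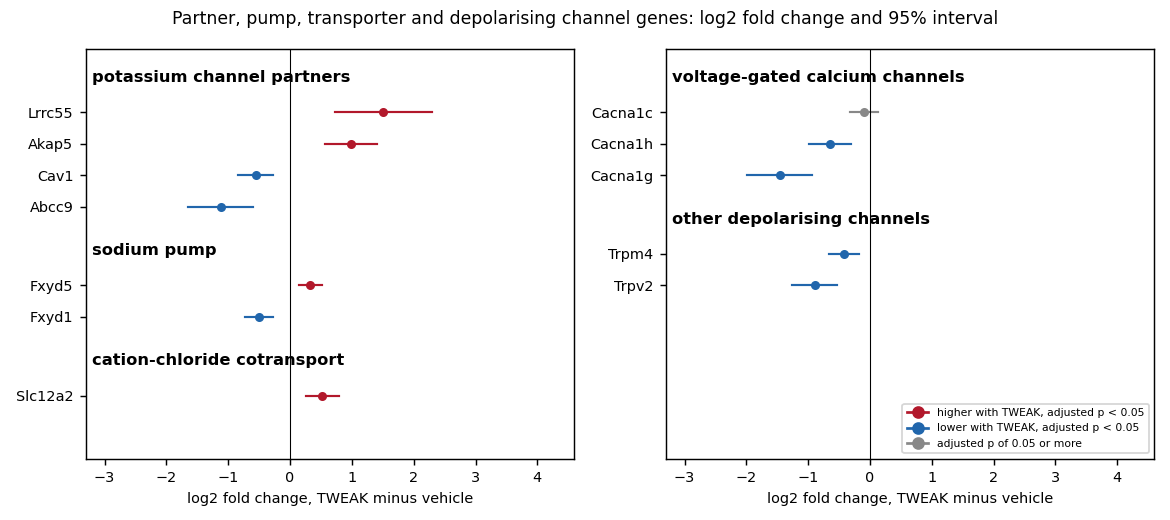
Log2 fold change of TWEAK minus vehicle (x axis) with 95% limma intervals for 12 genes of 5 lists that work beside potassium channels, in red where called higher with TWEAK, blue where called lower and grey where not called. Of the genes plotted, Lrrc55 (1.51) lies farthest to the right and Cacna1g (-1.46) farthest to the left.

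Channels that depolarise the membrane work against potassium channels. Of 11 voltage-gated calcium channel genes 2 fell, the T-type genes Cacna1g and Cacna1h, where 5.55% of all genes fell. Cacna1g had 613, 303 and 491 normalized counts with TWEAK, against 1167, 1213 and 1358 with vehicle, so its groups lay far apart (log2 fold change -1.46, SE 0.21, limma adjusted p = 0.0129). The fall of Cacna1h was 0.65 (limma adjusted p = 0.0350). Cacna1c, the L-type pore that carries most of the calcium influx of arterial muscle, had a log2 fold change of -0.09 (limma adjusted p = 0.516). Of 20 other depolarising channels, 1 rose and 2 fell, where 8.11% of all genes rose and 5.55% fell. The cation channel genes that fell were Trpv2 (log2 fold change -0.90, limma adjusted p = 0.0181) and Trpm4 (-0.42, 0.0468).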

How the data were processed

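RNA of 6 libraries, 3 with TWEAK and 3 with vehicle, was sequenced with a stranded total RNA kit per the design text. The deposited table lists, per the file headers, the authors' log2 fold change, its standard error, a Wald score, raw and adjusted p-values, and a signal per library, the normalized count. DESeq2 is named in the submitters' processing notes, whereas aligner, counter, use of strand, build and annotation are not stated in those sources. Exons of 17 members overlap another GENCODE M21 gene, for which reads cannot be told apart if strand was not used. For Kcnab2 an overlapping gene (Gm16334, 125 shared exon bases) lies on the same strand, where use of strand would not separate them.

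Each normalized count is a read count divided by 1 size factor per library: 100% of the deposited values were whole multiples of 1 read within 0.01. A minimum mean of 1 removed none of the 14927 genes, and log2(normalized count + 1) was tested with limma 3.58.1 (trend, robust, two-sided) in R 4.3.3. Experiment was a block, taken from the column headers and from deviations that correlated at 0.734 to 0.879 within experiments and -0.760 to -0.126 between them. Deviations were taken from each group's own mean, so they cancel within a group. The negative values thus largely follow from the positive ones and are no separate evidence for the block. On recovered reads, blocked DESeq2 1.42.0 called 2702 genes and shared 2666 calls with the 2702 in the authors' deposited table; edgeR 4.0.16 called 1902. No 2 libraries were duplicates (lowest chi-square per degree of freedom 123). On simulated reads with 200 planted genes the blocked limma step was run on 14927 genes. It recovered 88% of those changed by 1 and 99% of those changed by 2 on the log2 scale, with 25 false calls. With at most 200 true calls possible, the false share in this simulation lay above the threshold of 0.05. Changes under 1 were not planted, although called members such as Kcnt2 (-0.44) and Kcna6 (-0.46) changed by less.

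Named were all called members, members whose groups did not overlap, the 2 most abundant of each class, and a list of known arterial channels; of other lists, up to 4 called genes or the 2 most abundant. Members, lists and the block were chosen with earlier results of these data known. Genes outside that rule were chosen after their values were seen, and a few genes are not reported here.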

Additional observations from a re-analysis of the deposited data

How the results depend on the processing

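The 29 named members kept their direction under the 14 alternatives wherever they were tested, except for 2 uncalled genes when 1 experiment was left out: Kcnab2 ranged from -0.071 (without experiment 1) to 0.26, and Kcnab1 from -0.15 to 0.024 (without experiment 3). Without the replicate block all 14 member calls were lost: 0 members passed (0 higher, 0 lower), and 3 of all genes passed (3 higher, 0 lower). Leaving out 1 experiment gave 3 to 18 members (2 to 4 higher, 1 to 14 lower) and 666 to 3902 genes (506 to 1930 higher, 154 to 1972 lower). TMM scaling gave 9 members, 3 higher and 6 lower (7.61% and 4.30% of all genes). Upper quartile scaling gave 22, 5 higher and 17 lower (10.7% and 9.33% of all genes, with 1392 lower); DESeq2 gave 5 members higher (10.8% of all genes). Correction for GC content and length, an alternative chosen after seeing the data, gave 3472 genes, 2024 higher and 1448 lower, and kept all 14 member calls. Member calls lost numbered 11 without experiment 1, 10 without experiment 3, 5 with TMM, 3 with edgeR, 2 with limma-voom and 1 each with a pseudocount of 0.5 and a mean of at least 50; none was lost without experiment 2 or with DESeq2, a pseudocount of 10, upper quartile scaling or cyclic loess. All 14 called partner, pump, transporter and depolarising channel genes lost the call without the block. Without experiment 1 it was lost by 11 of them, and without experiment 3 by 11. Of those named, Trpm4 also lost it with edgeR, limma-voom and TMM, and Cav1 with TMM. Fxyd5 lost it with upper quartile scaling and cyclic loess, and Lrrc55 with DESeq2. The cause of these shifts was not tested. Counting error is relatively largest for the 17 members that averaged under 50 normalized counts.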
